A study of Mus musculus with 4 samples.

Results

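The 8 granzyme genes Gzma, Gzmb, Gzmc, Gzmd, Gzme, Gzmf, Gzmg and Gzmk, the perforin gene Prf1 and the cathepsin W gene Ctsw were examined. These 10 genes were taken by symbol from the 55367 genes of the count tables. Cytotoxic T cells and NK cells kill through granules that they release onto a target cell. Perforin forms pores through which the granzymes, a family of serine proteases, reach the cytosol of the target, and granzyme B cleaves proteins there that start cell death. Cathepsin W is a cysteine protease made mainly by CD8+ T cells and NK cells.

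The series addressed antitumor immunity in mice whose T cells lack Satb1, which encodes a chromatin organizer of T cells. Tumors were grown from the mouse melanoma line B16-F10 and dissociated, and cells positive for CD45.2 (a leukocyte marker) and CD8 were sorted for RNA. There were 2 libraries labeled WT (WT 1 and WT 2) and 2 labeled KO (KO 1 and KO 2), and the labels gave no further genotype, age or treatment for either group. Besides WT mice, the series text names Satb1 F/F mice with ThPOK-cre, which deletes in the CD4 lineage, and with E8I-cre, which deletes in the CD8 lineage. The labels did not say which of these the KO libraries were. Nothing in the labels said whether a library stood for 1 animal or for several, so the p-values measure only the spread between these libraries.

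Satb1 counts were not lower in the libraries labeled KO. These cells were sorted on CD8 and ThPOK-cre deletes in the CD4 lineage, so a KO of that kind need not lose Satb1 here. It had 7 and 5 counts in the WT libraries but 131 and 55 in the KO libraries (log2 fold change 3.36, SE 0.79, edgeR adjusted p = 0.115). Per count on the T cell identity genes described below it overlapped between the groups, at 0.0259 and 0.0110 in the WT libraries and 0.0120 and 0.00829 in the KO libraries. On neither scale did Satb1 check the labels, so the groups are called by their labels throughout, and every direction given here would turn if the labels were exchanged. The libraries held 4017875 to 5382915 gene counts, and 3 counts, the limit that a count of 0 allows, stood for 0.521 to 0.897 normalized CPM (read counts scaled to a common library total). Y-linked Ddx3y had 0 and 0 counts in the WT libraries and 188 and 81 in the KO libraries, while Xist, the RNA that coats the inactive X of females, had 435 and 216 against 0 and 3. Sex and label therefore cannot be told apart for any gene below.

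T cell transcripts were scarce in the libraries labeled WT. The 10 T cell identity genes, which include the CD3 and CD8 chains, held 0.00672% and 0.0106% of the gene counts in the WT libraries and 0.244% and 0.123% in the KO libraries, and 9 of the 10 rose. Cd8a, the gene of the sorted surface marker, had 24 and 28 counts against 843 and 733 (log2 fold change 4.34, SE 0.48, edgeR adjusted p = 0.0172), and Cd3e had 26 and 41 against 585 and 659 (3.65, SE 0.47, adjusted p = 0.0221). The 12 macrophage or monocyte genes held 2.68% and 3.66% of the counts in the WT libraries and 2.15% and 2.55% in the KO libraries, with 0 of 12 past the threshold and 10 lower. The share of reads that came from T cells cannot be read from these genes, since no library of pure CD8+ T cells was at hand for comparison. In bulk RNA, fewer T cells and less RNA per T cell cannot be told apart.

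Other cell types also differed in level. The melanoma list stood at 0.0217% and 0.0254% in the WT libraries and at 0.232% and 0.13% in the KO libraries (1 of 7 genes rose, all 7 higher), and the fibroblast or endothelium list at 0.00207% and 0.00192% against 0.147% and 0.0203% (3 of 5 tested genes rose). The regulatory T cell list, at 0.00510% and 0.00601% against 0.0266% and 0.0158%, had 0 of 5 genes past the threshold, the CD4 T cell list 0 of 2, the conventional dendritic cell list 0 of 5 and the plasmacytoid dendritic cell list 0 of 1. No gene of the remaining lists was tested. NK cells express the same granule genes, and their 4 markers had 0 and 4 counts in the WT libraries and 6 and 2 in the KO libraries, with Ncr1 at 0, 1, 4 and 0. Neutrophil markers held 14, 9, 6 and 20 counts and B cell markers 3, 0, 9 and 7. The mast cell or basophil markers had 3 counts in WT 2 and none elsewhere, with 6 of the 7 genes at 0 in all 4 libraries. The part of these cell types, and of sex, in the differences below was not tested beyond the ratios given per T cell count.

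The members showed different patterns. Ctsw, Gzmb and Prf1 were higher in both libraries labeled KO, Gzmd, Gzme, Gzmf and Gzmg were lower in both, and Gzma, Gzmc and Gzmk overlapped between the groups. Of the 10 members tested, 1 passed the adjusted threshold, against 0.574% of all 11837 genes tested, and it was higher in KO (background 0.549% higher and 0.0253% lower). At an unadjusted p under 0.05 there were 7 members, 3 higher and 4 lower, where the background was 9.44% higher and 4.23% lower. The 4 lower members passed the filter on low counts only through the WT libraries, where they were high, so their count is not read against that background. Groups that did not overlap were common among all genes, 25.3% higher and 22.6% lower. The members' median log2 fold change of -0.05 lay beside 0.05 for all genes tested. In total the 10 genes took 0.0116% and 0.0134% of the gene counts in the WT libraries and 0.0366% and 0.0443% in the KO libraries.

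**Figure D1:**
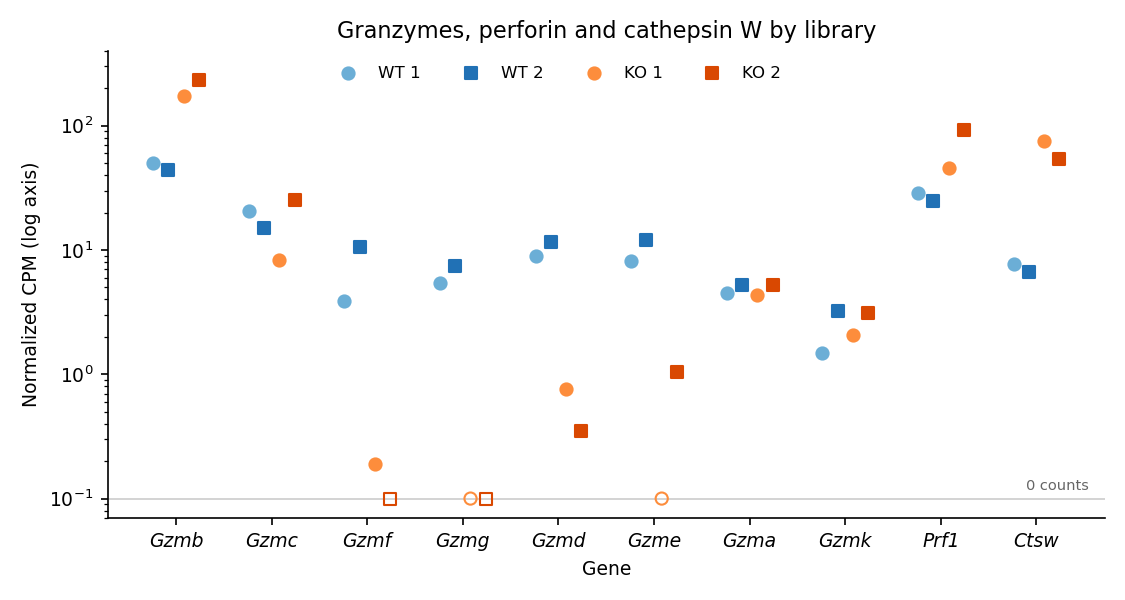
Normalized CPM (vertical log axis) of the 10 member genes (horizontal axis) in WT 1, WT 2, KO 1 and KO 2, with open symbols on the grey line for 0 counts. Ctsw, Gzmb and Prf1 lie higher in both KO libraries, and Gzmd, Gzme, Gzmf and Gzmg lie at or below 1.04 CPM in both KO libraries.

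Ctsw was the member that rose. It lies on chromosome 19 at 5465043 to 5468507 on the minus strand (GRCm38/mm10), and 0.477% of its exonic bases overlap Fibp on the other strand. It had 26 and 27 counts in the WT libraries and 394 and 309 in the KO libraries, which were 7.78 and 6.65 against 74.6 and 53.7 normalized CPM. All KO values were far above both WT values, and the libraries within each group lay within 1.39-fold of each other. The mean was 7.21 ± 0.794 CPM in WT and 64.1 ± 14.8 in KO (SD, n = 2 each), and the log2 fold change was 3.15 (SE 0.49, edgeR adjusted p = 0.0316). The adjusted p was 0.0991 without WT 1 and 0.0881 without WT 2, with log2 fold changes of 3.20 and 2.98.

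Gzmb was the most abundant member per length in every library. Its gene lies on chromosome 14 at 56258838 to 56262260 on the minus strand. It had 167 and 179 counts in the WT libraries and 921 and 1342 in the KO libraries, or 49.9 and 44.1 against 174 and 233 normalized CPM. The groups did not overlap, and the mean went from 47.0 ± 4.13 to 204 ± 41.5 CPM (SD, n = 2 each). The log2 fold change was 2.11 (SE 0.44) and missed the threshold (edgeR adjusted p = 0.0759), and the adjusted p was 0.732 without WT 1, 0.447 without WT 2, 0.00962 without KO 1 and 0.0115 without KO 2.

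Prf1 was higher in both KO libraries to a smaller extent. It lies on chromosome 10 at 61297833 to 61304680 on the plus strand and had 96 and 101 counts in the WT libraries and 242 and 529 in the KO libraries. Normalized CPM were 28.7 and 24.9 against 45.8 and 91.9, so KO 2 held 2.0 times the level of KO 1 while both stood above WT. The means were 26.8 ± 2.70 and 68.8 ± 32.6 CPM (SD, n = 2 each), and the log2 fold change was 1.36 (SE 0.49, edgeR adjusted p = 0.275). That difference missed the threshold and lay at 0.74 without KO 2 and 1.77 without KO 1.

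Gzma and Gzmk, which cleave after basic residues and lie next to each other on chromosome 13 (113093825 to 113100981 and 113171608 to 113225908, both minus strand), were low in all 4 libraries. Gzma had 15 and 21 counts in the WT libraries and 23 and 30 in the KO libraries, or 4.49 and 5.17 against 4.35 and 5.21 normalized CPM. Gzmk had 5 and 13 counts against 11 and 18, or 1.5 and 3.20 against 2.08 and 3.13 normalized CPM. The groups overlapped for both genes, and the log2 fold changes were -0.02 (SE 0.74, edgeR adjusted p = 0.995) for Gzma and 0.14 (SE 0.90, adjusted p = 0.967) for Gzmk. With SEs of this size, differences were not detectable at this depth rather than absent, and each sign turned when single libraries were left out, to 0.10 for Gzma without KO 1 and to -0.34 for Gzmk without WT 1.

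The remaining granzymes lie in a row with Gzmb on chromosome 14, all on the minus strand. Measured from the start of Gzmb, Gzmc began 27.6 kb downstream (56231441 to 56234656), Gzmf 50.8 kb (56205263 to 56211417), Gzmg 103 kb (56156582 to 56159579), Gzmd 130 kb (56129556 to 56132608) and Gzme 142 kb (56117626 to 56120625). Their coding sequences are close copies. Identity in GENCODE M21 was 83.3 to 93.3% among Gzmd, Gzme, Gzmf and Gzmg, 71.1 to 72.4% between Gzmc and these 4, and 65.1 to 75.6% between Gzmb and Gzmc to Gzmg.

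The first 60 coding bases are shown because they show how close the copies are, with capitals at bases that differ from Gzmd.
Gzmd: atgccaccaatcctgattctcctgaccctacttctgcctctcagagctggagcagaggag
Gzme: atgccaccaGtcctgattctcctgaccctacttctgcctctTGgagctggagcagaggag
Gzmg: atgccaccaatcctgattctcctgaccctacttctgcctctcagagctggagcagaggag
Gzmf: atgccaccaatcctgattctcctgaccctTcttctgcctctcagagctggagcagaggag
Gzmc: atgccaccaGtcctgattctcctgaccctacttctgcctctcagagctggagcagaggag
Gzmb: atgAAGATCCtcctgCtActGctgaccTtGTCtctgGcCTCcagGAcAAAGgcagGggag
Gzmg had the same 60 bases as Gzmd, Gzmf and Gzmc differed at 1 base each, Gzme at 3 and Gzmb at 25. Of all 50-base windows of the transcripts, 21.9% in Gzmd, 20.6% in Gzme, 19.4% in Gzmf, 19.8% in Gzmg and 4.14% in Gzmc occurred unchanged in another gene, and none did in Gzmb, Gzma, Gzmk, Prf1 or Ctsw. Reads from such windows may be lost or placed on a copy, so the split among Gzmc to Gzmg is uncertain. In Gzmf, 16.4% of exonic bases also overlap Gm4022 on the other strand.

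Gzmc overlapped between the groups. It had 69 and 61 counts in the WT libraries and 44 and 146 in the KO libraries, or 20.6 and 15 against 8.33 and 25.4 normalized CPM. KO 1 was the lowest library and KO 2 the highest, a 3.04-fold gap within the group. The log2 fold change was -0.08 (SE 0.63, edgeR adjusted p = 0.974), and it was 0.50 without KO 1 and -1.13 without KO 2.

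Gzmd, Gzme, Gzmf and Gzmg were present in both WT libraries and near or at 0 in both KO libraries. Gzmd had 30 and 47 counts against 4 and 2, or 8.97 and 11.6 against 0.757 and 0.347 normalized CPM. Gzme had 27 and 49 counts against 0 and 6, or 8.07 and 12.1 against 0 and 1.04 normalized CPM. Neither gene overlapped between the groups. Gzmf had 13 and 43 counts against 1 and 0, or 3.89 and 10.6 against 0.189 and 0 normalized CPM. Gzmg had 18 and 30 counts against 0 and 0, or 5.38 and 7.39 normalized CPM against limits of 0.568 and 0.521. WT 1 was the lower WT library for each of the 4 genes.

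None of these 4 genes passed the adjusted threshold. Gzmd stood at a log2 fold change of -4.17 (SE 0.89, edgeR adjusted p = 0.0806), and pooled normalized counts were 19.1 times higher in WT with a counting interval of 8.40 to 53.8. Gzme was at -4.18 (SE 1.14, adjusted p = 0.166) and a pooled ratio of 18.9 (8.29 to 53.1), and its log2 fold change was -3.25 without KO 1 and -8.44 without KO 2, where KO 1 had 0 counts. These intervals do not cover the spread between libraries. Gzmf had an adjusted p of 0.0883 and, with 1 count in the KO libraries together, a ratio of 83.5 (14.4 to 3358). Gzmg was at least 11.7-fold lower in the KO libraries, set against 3 counts in each library (adjusted p = 0.0624). All 4 reached 10 counts in WT libraries only, so the filter on low counts kept them through the group in which they were high. Calls depended on single libraries. Without KO 2 the adjusted p was 0.0407 for Gzmd, 0.0130 for Gzme, 0.0343 for Gzmg and 0.0532 for Gzmf, and without KO 1 it was 0.0761, 0.143, 0.0918 and 0.0893. Without WT 1 it was 0.0207 for Gzmf, 0.0914 for Gzmd, 0.0723 for Gzme and 0.0521 for Gzmg. Without WT 2 it was 0.183 for Gzmd, 0.243 for Gzme and 0.104 for Gzmg, and Gzmf was removed by the filter on low counts.

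**Figure D2:**
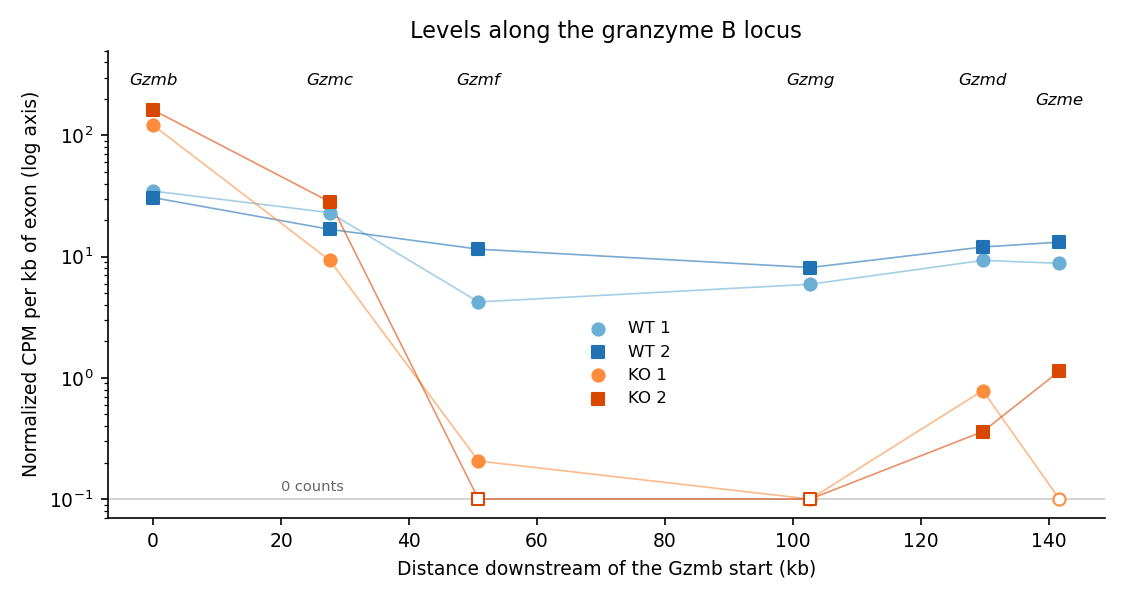
Normalized CPM per kilobase of exon (vertical log axis) against distance downstream of the Gzmb start in kb, with 1 line for each library and open symbols for 0 counts. The KO libraries lie above the WT libraries at Gzmb, on both sides of them at Gzmc and below them from Gzmf at 50.8 kb to Gzme at 142 kb.

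Neighbors of these genes had few counts or none. Gzmn, which lies 87.7 kb downstream of the Gzmb start between Gzmf and Gzmg, had 0 counts in all 4 libraries, which allowed up to 0.521 to 0.897 normalized CPM. Of 8 mast cell protease, chymase and cathepsin G genes of the same chromosomal cluster, 7 had 0 counts in every library and Mcpt8, a basophil protease, had 3 counts in WT 2.

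The promoters of the 6 tandem granzymes are shown because their genes were split between higher, overlapping and lower. These are the 150 bases before each RefSeq start (GRCm38.p6), read 5′ to 3′ on the strand of the gene, with capitals at matches, on either strand, to the AP-1 letters TGANTCA, the RUNX letters TGTGGT and the CRE letters TGACGT.
Gzmb (chr14:56262335-56262484, minus strand): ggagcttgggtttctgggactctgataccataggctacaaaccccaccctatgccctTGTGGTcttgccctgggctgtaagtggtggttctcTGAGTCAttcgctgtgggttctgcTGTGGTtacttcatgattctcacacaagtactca
Gzmc (chr14:56234658-56234807, minus strand): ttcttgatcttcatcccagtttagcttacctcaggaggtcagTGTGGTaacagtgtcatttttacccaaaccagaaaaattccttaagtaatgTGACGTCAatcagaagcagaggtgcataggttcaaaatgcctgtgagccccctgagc
Gzmf (chr14:56211408-56211557, minus strand): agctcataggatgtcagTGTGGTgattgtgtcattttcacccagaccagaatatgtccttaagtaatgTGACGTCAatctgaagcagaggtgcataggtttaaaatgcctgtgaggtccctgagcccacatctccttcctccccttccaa
Gzmg (chr14:56159580-56159729, minus strand): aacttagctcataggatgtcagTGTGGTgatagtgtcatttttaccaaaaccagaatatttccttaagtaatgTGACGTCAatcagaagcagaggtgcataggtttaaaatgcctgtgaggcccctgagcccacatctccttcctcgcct
Gzmd (chr14:56132594-56132743, minus strand): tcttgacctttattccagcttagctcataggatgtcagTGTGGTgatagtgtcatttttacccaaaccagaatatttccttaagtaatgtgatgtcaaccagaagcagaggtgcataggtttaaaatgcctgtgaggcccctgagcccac
Gzme (chr14:56120626-56120775, minus strand): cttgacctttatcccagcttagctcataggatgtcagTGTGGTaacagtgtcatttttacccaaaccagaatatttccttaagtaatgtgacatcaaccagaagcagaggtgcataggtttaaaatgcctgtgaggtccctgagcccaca
The RefSeq start of Gzmb lies upstream of its GENCODE start. The shown base next to it is 56262335, where the GENCODE gene ends at 56262260. For Gzmc these bases are 56234658 and 56234656, so the Gzmb window is shifted against that of Gzmc. Motif positions and identities below hold for the RefSeq starts only. In the 250 bases before the start, identity among Gzmc to Gzmg was 70.2 to 94.8%, and between Gzmb and these 5 it was 41.5 to 45.9%. The AP-1 letters were present in Gzmb, 58 bases before the start, and in none of the other 8 member promoters searched, against 6.75% of 32851 promoters. RUNX letters were found in 8 of the 9, all but Gzmk (14% of promoters), at 93 and 34 bases in Gzmb and at 174 and 108 bases in Gzmc. The promoters of Gzmc to Gzmg are copies of one another, so their matches are not independent and are not read against the share of all promoters. CRE letters were found in Gzmc, Gzmf, Gzmg and Prf1 (6.47% of promoters), where both strands matched and overlapped in the 3 granzymes. The T-box letters TCACAC were found in Gzmb and Gzmk (12.3%), and the STAT letters TTCNNNGAA in none (7.02%). Gzmd and Gzme lacked an exact match to the CRE letters. At the same site they read tgatgtca and tgacatca, where Gzmc, Gzmf and Gzmg read TGACGTCA. Whether any of these letters bear on the levels was not tested.

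Granzyme B made up most of the granzyme counts in the KO libraries. Its share of the counts on the 8 granzymes was 48.5% (exact Clopper-Pearson 95% interval 43.2 to 54.0%) in WT 1, 40.4% (35.8 to 45.1%) in WT 2, 91.7% (89.9 to 93.4%) in KO 1 and 86.9% (85.1 to 88.6%) in KO 2. The shares rested on 344, 443, 1004 and 1544 granzyme counts, and they do not depend on library scaling. Both KO shares lay above both WT shares, at 89.3 ± 3.41% against 44.5 ± 5.76% (SD, n = 2 each), a difference of 44.8 points. The exact permutation test, two-sided, gave p = 0.33, the smallest value that 2 libraries against 2 can give. Per kilobase of exon the difference was 50.4 points, and with Gzma and Gzmk alone beside Gzmb it was 9.82 points.

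The shares of a library have 1 total, so a larger Gzmb share leaves smaller shares for the other granzymes. Gzmd to Gzmg, joined after their values were seen, made up 25.6% and 38.1% of the granzyme counts in the WT libraries and 0.498% and 0.518% in the KO libraries. Gzmc held 20.1% and 13.8% against 4.38% and 9.46%, Gzma 4.36% and 4.74% against 2.29% and 1.94%, and Gzmk 1.45% and 2.93% against 1.1% and 1.17%. Gzma, Gzmc and Gzmk thus had smaller shares in KO while their CPM overlapped, which is no separate result.

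**Figure D3:**
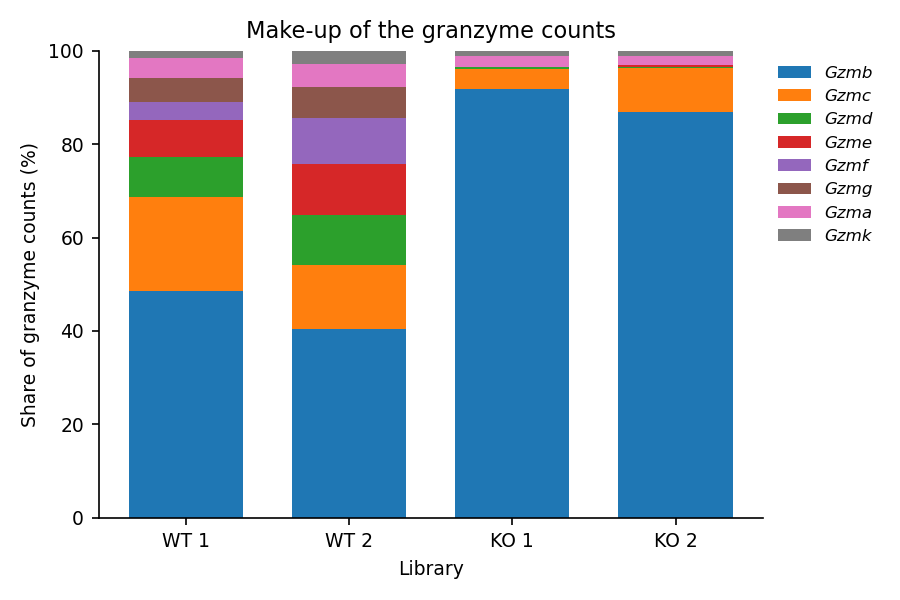
Share of the counts on the 8 granzymes (vertical axis, percent) taken by each granzyme in WT 1, WT 2, KO 1 and KO 2. Gzmb takes 48.5% and 40.4% of the WT bars and 91.7% and 86.9% of the KO bars, and Gzmd to Gzmg take 25.6% and 38.1% against 0.498% and 0.518%.

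Ratios between the members within a library differed between the groups as well. There were 1.74 and 1.77 Gzmb counts per Prf1 count in the WT libraries and 3.81 and 2.54 in the KO libraries. Gzmb per Gzmc was 2.42 and 2.93 against 20.9 and 9.19, and Gzmb per Gzma 11.1 and 8.52 against 40.0 and 44.7. In contrast, Gzmb per Ctsw was 6.42 and 6.63 against 2.34 and 4.34, since Ctsw differed more than Gzmb. Ctsw per Prf1 was 0.271 and 0.267 against 1.63 and 0.584. None of these ratios overlapped between the groups, whereas Gzma per Gzmk did, at 3.0 and 1.62 against 2.09 and 1.67.

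Per length, the order of the members differed between the groups. On normalized CPM per kilobase of exon, the WT means were 32.7 ± 2.87 for Gzmb, 19.9 ± 4.43 for Gzmc, 11 ± 3.09 for Gzme, 10.7 ± 1.91 for Gzmd, 10.4 ± 1.05 for Prf1, 7.88 ± 5.16 for Gzmf, 7.03 ± 1.56 for Gzmg, 4.80 ± 0.484 for Gzma, 3.82 ± 0.421 for Ctsw and 1.69 ± 0.870 for Gzmk (SD, n = 2 each). The neighbors from Gzme through Gzmd and Prf1 to Gzmf and Gzmg overlapped in their libraries, while the others in that order did not. The KO means were 142 ± 28.9 for Gzmb, 34 ± 7.84 for Ctsw, 26.6 ± 12.6 for Prf1, 18.8 ± 13.5 for Gzmc, 4.75 ± 0.601 for Gzma, 1.87 ± 0.531 for Gzmk, 0.573 ± 0.301 for Gzmd, 0.569 ± 0.804 for Gzme and 0.103 ± 0.146 for Gzmf, with Gzmg at 0. Ctsw, Prf1 and Gzmc formed a run of overlapping neighbors, as did Gzmd, Gzme, Gzmf and Gzmg. By the means, Ctsw moved from below Gzma in WT to next after Gzmb in KO.

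Per T cell identity count, 10 of 10 members were lower in both libraries labeled KO, as were 95.5% of all genes tested, so the direction on this scale is no result about the members. The T cell identity genes had 270 and 453 counts in the WT libraries and 10915 and 6636 in the KO libraries. Gzmb had 0.619 and 0.395 counts per T cell identity count in the WT libraries and 0.0844 and 0.202 in the KO libraries, a mean of 0.507 ± 0.158 against 0.143 ± 0.0833 (SD, n = 2 each), 3.54 times higher in WT (exact permutation p = 0.33, two-sided, the smallest value possible). Without KO 2 the log2 ratio of KO over WT went from -1.82 to -2.59. Prf1 had 0.356 and 0.223 against 0.0222 and 0.0797, 5.68 times higher in WT, a ratio that was 13.0 without KO 2 and 3.63 without KO 1. Ctsw came closest to the T cell genes, with 0.0963 and 0.0596 against 0.0361 and 0.0466, 1.89 times higher in WT (1.44 to 2.33 with 1 library left out).

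The wider granule pathway was examined in 7 lists of 50 genes, of which 39 were tested. One of them passed the threshold, which was Tbx21, 26 genes were higher in KO and 13 lower, and the median log2 fold change was 0.44. Among all genes tested, 0.574% passed, 52.6% were higher and the median was 0.05. Tbx21, which encodes T-bet, a transcription factor that activates cytotoxic genes, had 11 and 6 counts in the WT libraries and 242 and 233 in the KO libraries and rose with a log2 fold change of 4.18 (SE 0.61, edgeR adjusted p = 0.0292). This lay inside the range of the T cell identity genes, 3.10 to 4.89, and a part of T cell content in it was not tested. Of the 9 regulators tested, 7 were higher and 2 lower, and Runx3, Notch2 and Stat5b had log2 fold changes of -0.82, -0.68 and 0.23, none past the threshold. Runx3 had 318 and 263 counts in the WT libraries and 239 and 259 in the KO libraries.

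Enzymes that mature granzymes were abundant in both groups. Ctsc, which activates granzymes by removing a dipeptide, had 3912 and 9515 counts in the WT libraries and 7903 and 13750 in the KO libraries, with overlapping groups and a log2 fold change of 0.14 (SE 0.57). Ctsh and Ctsl both had log2 fold changes of -0.65. Of the 3 genes, 0 passed the threshold, with 1 higher and 2 lower. Macrophages also express these lysosomal proteases.

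Inhibitors of granule proteases had 0 of 8 genes past the threshold, with 6 higher and 2 lower where 52.6% of all genes tested were higher, and a median log2 fold change of 0.85. Their summed share of the gene counts was 0.196% and 0.219% in the WT libraries and 0.189% and 0.134% in the KO libraries, most of it on Cst3. Serpinb9, the inhibitor of granzyme B that protects killer cells from their own granules, had 29 and 128 counts in the WT libraries and 401 and 408 in the KO libraries (log2 fold change 1.86, SE 0.60, edgeR adjusted p = 0.234). Cst3, a secreted cysteine protease inhibitor, had a log2 fold change of -0.89, Serpina3g at -1.06 and Serpinb6a at 0.05. Serpinb6b, named after its values were seen, had 7 and 12 counts against 296 and 105 and came nearest to the threshold in this list (3.85, SE 0.72, adjusted p = 0.0544).

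Granule matrix genes gave 0 of 5 past the threshold, 2 higher and 3 lower. Srgn, whose proteoglycan holds granzymes in the granule, had a log2 fold change of 0.41, Calr -0.12, Lamp1 -0.28 and Cd63 -0.91. Nkg7, a membrane protein of cytotoxic granules that was named after its values were seen, had 192 and 260 counts in the WT libraries and 2732 and 1654 in the KO libraries (2.73, SE 0.50, edgeR adjusted p = 0.0523). The general granule and lysosome genes of this list thus had log2 fold changes of 0.41 or less while Nkg7 was higher in both KO libraries.

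Transport and release genes had 0 of 10 past the threshold, 7 higher and 3 lower, with a median log2 fold change of 0.68. Vamp8, a vesicle fusion protein, had a log2 fold change of -1.31, Stxbp2 at -0.52, Unc13d, which primes granules for release, at -0.03 and Ap3b1 at 0.70. Other means of killing had 4 of 7 genes tested, 0 past the threshold, 3 higher and 1 lower. Ifng, the cytokine gene of activated T cells, had 8 and 15 counts in the WT libraries and 386 and 106 in the KO libraries (log2 fold change 3.89, SE 0.76, edgeR adjusted p = 0.0617). Fasl, the ligand of the death receptor Fas, had 0 and 10 counts against 76 and 64 (3.28, SE 1.08), Tnfsf10 stood at 2.26 and Tnf, which macrophages also make, at -0.53. Gzmm, a further granzyme, had 12 and 4 counts against 7 and 4 and was too low to be tested.

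**Figure D4:**
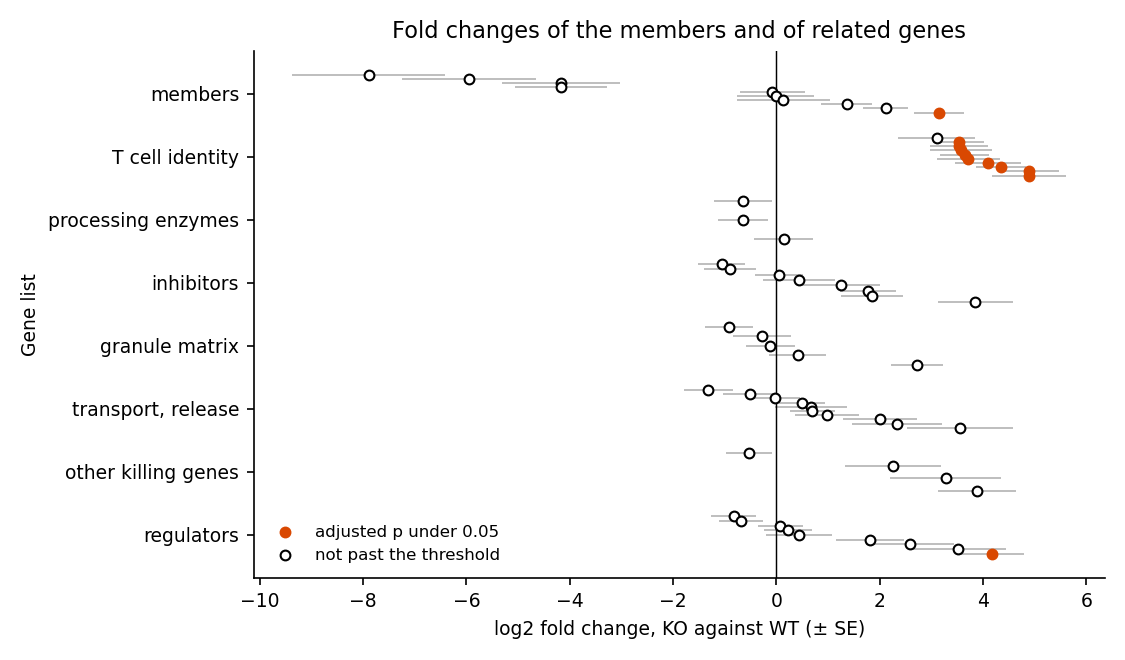
Log2 fold change of KO against WT (horizontal axis, with bars of 1 SE) for each tested gene of the members, the T cell identity list and 6 pathway lists (vertical axis), with filled points past the adjusted threshold of 0.05. Ctsw among the members, 9 of 10 T cell identity genes and Tbx21 among the regulators are filled, and the leftmost members are Gzmd to Gzmg, of which Gzmg is a fit to 0 counts in KO and no measure of size.

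The profiles nearest to Gzmb, Prf1 and Ctsw were sought among 10428 tested genes by the distance of centered log2 CPM over the 4 libraries. For Gzmb they were Eno3 (0.197), Asns (0.202) and Trem1 (0.210), of which Eno3 had 56 and 65 counts in the WT libraries and 378 and 481 in the KO libraries. Prf1 was nearest to Cep89 (0.11), Rassf5 (0.118) and C2cd5 (0.146), each with its highest value in KO 2. Ctsw was nearest to Naa16 (0.213), Cyp2j6 (0.238) and Lat (0.297), an adaptor of T cell receptor signaling that had 14 and 16 counts against 279 and 225 and rose (log2 fold change 3.49, edgeR adjusted p = 0.0295). With 4 libraries, many genes lie close to any profile.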

How the data were processed

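RNA-seq read counts were analyzed for 2 libraries labeled WT and 2 labeled KO. The authors deposited 1 table of raw counts per gene for each library, without normalization. Per the labels they used HISAT2 2.1.0, HTSeq 0.11.0 and the genome mm10; the annotation and strand setting were not given in the sources used here, and that the study's RNA-seq methods cover these libraries is an assumption. HTSeq summary rows, which stand for no gene, entered neither library sizes nor tests. They covered reads that did not align (30.3 to 44.2% of reads), lay outside features (22.3 to 29.5%), had low alignment quality (6.04 to 7.71%), aligned more than once (4.16 to 4.60%) or were ambiguous (0.830 to 1.09%), which left 20.5 to 28.8% on genes.

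KO was compared with WT in edgeR 4.0.16 (R 4.3.3), using filterByExpr (minimum count 10, total 15), trimmed mean of M-values factors and the quasi-likelihood F test with group as the only term. P-values were two-sided and adjusted by the Benjamini-Hochberg method over all 11837 genes tested, with a threshold of 0.05. The prior count was the default of edgeR, and each SE is the absolute log2 fold change over the root of its F statistic. CPM were normalized with the scaled library sizes. Shares have exact Clopper-Pearson 95% intervals and pooled ratios exact conditional ones. Intervals and limits of 3 counts cover counting error only, and PCR copies were not marked by molecular identifiers. No libraries agreed within sampling noise (chi-square per degree of freedom at least 24.4).

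Gene models came from GENCODE M21 (GRCm38), promoters from RefSeq (GRCm38.p6), which held 9 of the 10 members. Motifs were searched on both strands of 250 bases. Genes were named by a rule: all members, up to 4 genes of each pathway list (those past the threshold, then those of highest mean CPM), and the 3 nearest profiles among genes with a mean of at least 20 counts, with a pseudocount of 0.5. The pathway genes Gzmm, Gzmn, Nkg7 and Serpinb6b were named outside this rule. Members, the 12 marker lists and the 7 pathway lists were chosen with earlier results of these data known. The fit was also run on simulated data with the same dispersion for every gene. Those data lack the differences in cell make-up seen here, so they do not bear on the calls. Alternatives were other scaling factors, other filters, DESeq2 1.42.0, a replicate block, other denominators and each library left out. A crossed block and a prior count of 2 were added after seeing the data.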

Additional observations from a re-analysis of the deposited data

How the results depend on the processing

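The number of genes past the threshold was 68, and 1 of them was a member. These counts became 65 and 1 with size factors of DESeq2 in edgeR, 60 and 1 with upper-quartile factors, 63 and 1 with at least 10 counts in 2 libraries, and 68 and 1 with a prior count of 2. They were 136 and 2 with library totals only, which shifted the median log2 fold change by 0.33, 583 and 6 with no filter, and 416 and 6 with DESeq2. Leaving out 1 library gave 113 to 1249 genes and 0 to 5 members, with the lone sample assumed to vary like the other group; without WT 2 the filter on low counts removed Gzmf. The share of higher genes among those called was 95.6%, and it was 84.1% with DESeq2, 80.5% without KO 1 and 58.0% without KO 2.

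The replicate numbers share only a number: deviations of same-numbered libraries had r = -0.19 over genes. With a replicate block 215 genes and 5 members passed, and with the crossed block 647 genes and 6 members.

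Ctsw passed in 11 of 13 alternatives (adjusted p 8.12e-06 to 0.0991), Gzmb in 6 (0.000939 to 0.732), Gzmd, Gzme, Gzmf and Gzmg in 5 each and Prf1, Gzma, Gzmc and Gzmk in 0, and the cause of these changes was not tested. Signs turned for Gzma with upper-quartile factors (0.027), library totals (0.30), without WT 2 (0.05) and without KO 1 (0.10), for Gzmc with library totals (0.23), without WT 1 (0.13) and without KO 1 (0.50), and for Gzmk without WT 1 (-0.34) and without KO 2 (-0.22). With 1 library left out Gzma ranged from -0.19 to 0.10, Gzmc from -1.13 to 0.50 and Gzmk from -0.34 to 0.75. The Gzmb share differed by 50.4 points per kilobase of exon, by 9.82 points with Gzma, Gzmb and Gzmk only, and by 40.8 to 48.9 points with 1 library left out. Gzmb per T cell identity count, as log2 of KO over WT, was -1.32 with the CD3 genes and -1.77 with the CD8 genes below it, and -2.59 to -1.33 with 1 library left out. With 3 counts standing for 0.521 to 0.897 normalized CPM, differences in Gzma and Gzmk of the size of their SEs were not detectable.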
